A study of Mus musculus with 20 samples.

Results

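The genes for 7 subunits of the receptors for γ-aminobutyric acid (GABA) were followed in Trpv1 neurons sorted from mouse dorsal root ganglia (DRG). They were taken by Ensembl identifier from a table of 37620 genes and are Gabra2, Gabra3, Gabra5, Gabrb1 and Gabrb2 of the GABA-A receptor and Gabbr1 and Gabbr2 of the GABA-B receptor. All mice were homozygous Trpv1tm2Bbm, a line in which the Trpv1 locus drives a reporter that includes nuclear β-galactosidase, and were 6-8 weeks old, so the controls of each comparison carried the same allele. Ganglia of the lumbar level (L4-5) and of the sacral level (L6-S1) came from 5 male and 5 female donors, which gave 4 groups of 5 libraries and 20 libraries in all. The cells were sorted for the brightest product of a β-galactosidase substrate, so weakly labelled Trpv1 neurons were not collected. Each donor label carries a pair of animal numbers, and whether cells of a pair were pooled is not given in the sources used here.

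GABA-A receptors are chloride channels made of 5 subunits, usually α, β and γ, and GABA opens them by binding between a β and an α subunit. GABA-B receptors are G-protein-coupled: GABBR1 binds GABA, GABBR2 carries the receptor to the membrane and engages Gi and Go proteins, and neither works well alone. On primary afferent neurons both receptors act mainly at the central terminals, where they reduce transmitter release. Because these neurons hold much chloride, GABA-A receptors depolarize them.

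The libraries held 43499216-65542378 reads on genes, as worked back from the deposited values (lumbar median 57195242, sacral median 53414398). Trpv1 was found in each library, at a log2 RPKM (reads per kilobase of exon, relative to the size of the library) of 3.14-4.71 in lumbar and 4.10-5.14 in sacral libraries. Transcripts of other cells were present too. The mean over 10 glial markers was 5.70-6.82 in lumbar and 4.76-6.01 in sacral libraries, higher in lumbar in 10 of 10 donors, and the glial genes Fabp7 and Apoe reached 10.38 and 9.89. The mean over 10 neuronal markers was 6.62-7.30 in lumbar and 7.24-7.66 in sacral libraries, higher in sacral in 10 of 10 donors. Markers of endothelial cells were higher in lumbar libraries for 4 of 4 genes tested and those of immune cells for 2 of 3 tested (limma, adjusted p at most 0.05), 1 of which, Csf1r, passed the filter on low values through its lumbar libraries alone, with Lyz2 at 2.12-4.76 in lumbar and -0.14-2.60 in sacral libraries. Of 5 markers of large neurons 3 were high enough to be tested. Pvalb was so only through its lumbar libraries (group means of 0.28 and -0.87 log2 RPKM, against -2.15 and -2.57 in sacral), so its difference is given as a description, the 2 others did not pass, and Calb2 had no value in any sacral library. The part of these differences in the results on GABA receptors was not tested, except where a value is given below. In sorted bulk samples, fewer cells that express a gene and less RNA of it per cell cannot be told apart.

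In the annotation of the mm9 genome (NCBIM37), Gabra2 lies on the minus strand of chromosome 5 at 71352296-71487088 and Gabrb1 on its plus strand at 72091171-72529628. Gabra3 is on the minus strand of chromosome X at 69678020-69902187, Gabra5 on the minus strand of chromosome 7 at 64663060-64765379 and Gabrb2 on the plus strand of chromosome 11 at 42233259-42446092. Gabbr1 is on the plus strand of chromosome 17 at 37182911-37212012 and Gabbr2 on the minus strand of chromosome 4 at 46675190-47004745. The values cover the exons of each gene as a whole, from 2392 bases for Gabra2 to 9922 bases for Gabrb2. Gabra5 shares 118 exon bases (4.4%) with Gm9962 on the opposite strand. The libraries were made from double-stranded cDNA and no use of the strand in counting is stated. A part of the reads of Gabra5 could thus belong to Gm9962. The other 6 genes share no exon bases with an annotated neighbour.

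The 250 bases before the start site are printed here for the 4 genes that later passed the test between the levels, to set their start regions beside each other. They come from RefSeq on the build GRCm38.p6 and are read 5′ to 3′ on the strand of the gene. All 7 genes matched an entry, and where a gene has several starts the one listed at the top is used. Gabra3 is at chrX:72656920-72657169 (minus), Gabrb1 at chr5:71657671-71657920 (plus), Gabbr1 at chr17:37045716-37045965 (plus) and Gabbr2 at chr4:46991715-46991964 (minus). Capitals mark matches on either strand to 3 short motifs, none of which overlaps another here. The GC box was searched as GGGCGG. The TATA box was searched as TATAAA. The half-site of the cAMP response element was searched as TGACG.
Gabra3: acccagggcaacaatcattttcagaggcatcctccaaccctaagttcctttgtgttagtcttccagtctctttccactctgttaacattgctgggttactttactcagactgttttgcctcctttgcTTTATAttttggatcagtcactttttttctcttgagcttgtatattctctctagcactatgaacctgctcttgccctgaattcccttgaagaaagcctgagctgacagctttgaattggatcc
Gabrb1: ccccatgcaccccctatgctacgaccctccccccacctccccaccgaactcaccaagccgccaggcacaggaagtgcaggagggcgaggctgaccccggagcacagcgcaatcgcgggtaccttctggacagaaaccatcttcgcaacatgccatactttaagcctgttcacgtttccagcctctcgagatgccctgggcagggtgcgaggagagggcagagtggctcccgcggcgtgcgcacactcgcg
Gabbr1: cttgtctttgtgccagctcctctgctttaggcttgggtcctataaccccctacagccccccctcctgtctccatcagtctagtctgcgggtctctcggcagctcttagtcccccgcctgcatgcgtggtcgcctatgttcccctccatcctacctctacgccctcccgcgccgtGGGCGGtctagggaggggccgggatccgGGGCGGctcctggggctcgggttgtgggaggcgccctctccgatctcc
Gabbr2: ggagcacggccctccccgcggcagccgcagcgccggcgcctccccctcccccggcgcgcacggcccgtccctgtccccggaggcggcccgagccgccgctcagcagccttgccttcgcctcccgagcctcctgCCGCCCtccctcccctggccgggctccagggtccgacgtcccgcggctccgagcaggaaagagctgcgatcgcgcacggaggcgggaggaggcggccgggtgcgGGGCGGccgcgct
Over 32851 such regions the median GC content was 52.4% and the median number of CG pairs was 6. Gabbr2 stood at the GC-rich end, with 80.8% GC and 37 CG pairs, and 99.0% of the regions held less GC. Gabbr1 had 66.0% GC and 16 CG pairs, and Gabrb1 had 64.4% and 18 at the start printed. Another listed start of Gabrb1, with its region at chr5:71699682-71699931 (plus), had 50.8% GC and 6 CG pairs, near the medians. Which start of Gabrb1 these cells use was not tested. Gabra3 was AT-rich, with 42.4% GC and no CG pair. Gabbr1 and Gabbr2 held 2 GC boxes each, a motif found in 32.7% of all regions. The TATA box motif of Gabra3 lies on the opposite strand and is found in 12.4% of all regions. The cAMP half-site, found in 17.8% of all regions, has no match in the 4 sequences.

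The comparison of spinal levels asked which genes distinguish the Trpv1 neurons of the sacral ganglia, which hold the afferents of the pelvic organs, from those of the lumbar ganglia. Both subunits of the GABA-B receptor, the α3 gene Gabra3 and the β1 gene Gabrb1 were higher in sacral libraries, and none of the 7 genes was higher in lumbar libraries. Glial markers were lower and neuronal markers higher in sacral libraries. With the glial marker mean as a covariate, which itself differed between the levels in each donor, only Gabra3 passed. With the neuronal marker mean subtracted Gabbr1 and Gabbr2 were at -0.15 and -0.19 (log2 fold change), where the median of all genes was 0.387, as set out below. The fold differences ran from 1.57 for Gabbr1 to 2.38 for Gabra3. Gabra2 and Gabra5 did not pass the test, and Gabrb2 was too low to be tested. Of 6 genes tested, 4 were thus higher in sacral libraries (limma with the donor as a block, Benjamini-Hochberg adjusted p at most 0.05 over 16304 genes). Over all genes 45.6% passed this test, 30.3% as higher in sacral and 15.3% as higher in lumbar libraries. The median log2 fold change (lumbar minus sacral, so that a negative value means higher in sacral) was -0.67 over the 6 genes and -0.11 over all genes tested.

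**Figure D1:**
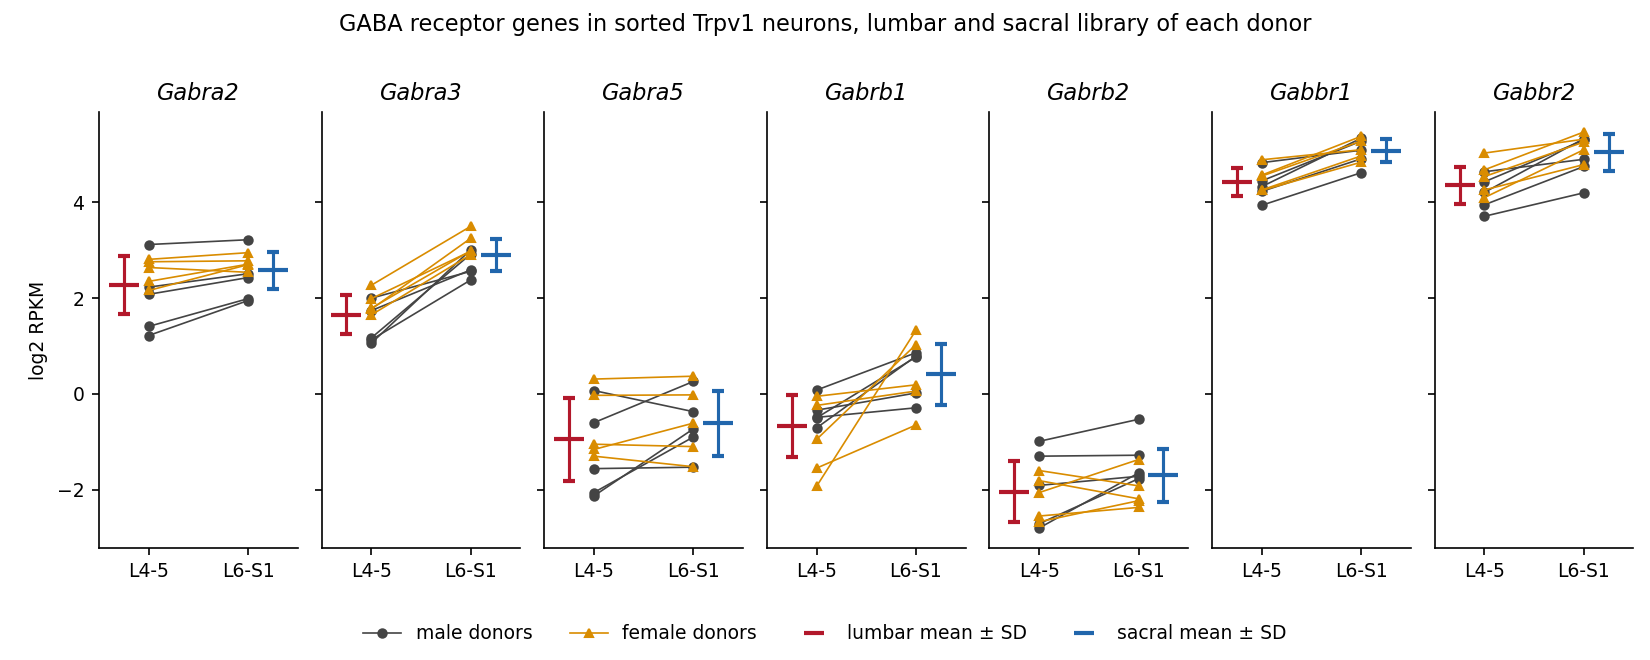
Deposited log2 RPKM (y axis) of the 7 GABA receptor genes at the lumbar (L4-5) and the sacral (L6-S1) level, with a line joining the 2 libraries of each donor (circles, 5 male donors; triangles, 5 female donors). Bars give the mean ± SD of 10 libraries. The lines of Gabra3, Gabrb1, Gabbr1 and Gabbr2 rise in 10 of 10 donors.

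Gabbr1, the GABA-binding subunit, was among the more abundant of these genes. Its level was 3.94 at the lowest, 4.39 at the median and 4.89 at the highest in the 10 lumbar libraries, and 4.62, 5.10 and 5.38 in the 10 sacral libraries (log2 RPKM). The ranges of the levels overlapped, but within each donor the sacral library was the higher one, by 0.21 in donor F2 to 1.01 in donor M5. The means were 4.43 ± 0.29 and 5.08 ± 0.25 (SD, n = 10 each). The log2 fold change was -0.65 (SE 0.10, 95% interval -0.86 to -0.43, adjusted p = 5.6e-05). Its reads numbered 4782-21899 per library.

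Gabbr2, the subunit that signals to G proteins, had much the same values. It was 3.71 at the lowest, 4.34 at the median and 5.03 at the highest in lumbar libraries, and 4.2, 5.18 and 5.47 in sacral libraries (log2 RPKM). Again the ranges overlapped while all 10 donors were higher in sacral, by 0.25 in M1 to 1.12 in M5. Over the 15318 genes tested that had a value in each library, 14.6% were higher in sacral in all 10 donors and 6.55% were higher in lumbar in all 10. The means were 4.35 ± 0.39 and 5.04 ± 0.39 (SD, n = 10 each), with a log2 fold change of -0.69 (SE 0.13, 95% interval -0.96 to -0.41, adjusted p = 0.0003).

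The 2 GABA-B genes kept close to each other in every library. Within a library, log2 RPKM of Gabbr1 minus that of Gabbr2 was 0.06 ± 0.17 (SD, 20 libraries), and it was 0.08 ± 0.14 in lumbar and 0.04 ± 0.20 in sacral libraries. This difference does not depend on how libraries are scaled to each other, and it was lower in lumbar than in sacral in 5 of 10 donors. Across the 20 libraries the levels of the 2 genes had a Pearson r of 0.95, and across the 10 donor differences one of 0.81. These are descriptions, since the libraries share donors, levels and cell makeup.

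Gabra3 encodes the α3 subunit. In lumbar libraries it was 1.06 at the lowest, 1.75 at the median and 2.27 at the highest, and in sacral libraries 2.38, 2.95 and 3.50 (log2 RPKM). The 2 levels did not overlap, which was so for 1.71% of the 15318 genes tested that had a value in each library. In male donors M1 to M5 the lumbar minus sacral differences were -0.56, -1.95, -0.85, -1.25 and -1.76, and in female donors F1 to F5 they were -1.23, -1.26, -1.20, -1.49 and -0.99. The difference was thus negative in each donor, and smallest in M1. The means were 1.66 ± 0.41 in lumbar and 2.91 ± 0.33 in sacral libraries (SD, n = 10 each), with a log2 fold change of -1.25 (SE 0.12, 95% interval -1.51 to -1.0, adjusted p = 4e-07). Its reads numbered 327-899 in lumbar and 1172-2547 in sacral libraries.

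Gabra2 encodes the α2 subunit, which in the spinal dorsal horn is tied to the pain-relieving action of benzodiazepines. It was 1.22 at the lowest, 2.29 at the median and 3.12 at the highest in lumbar libraries, and 1.95, 2.62 and 3.22 in sacral libraries (log2 RPKM). The ranges overlapped widely, although 9 of 10 donors were higher in sacral, by at most 0.73. The log2 fold change was -0.30 (SE 0.17, 95% interval -0.65 to 0.05) and did not pass the test (adjusted p = 0.15). It passed with the donor as a fixed effect (-0.30, adjusted p = 0.018) and without donor M1 (-0.34, adjusted p = 0.034).

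Gabra5, whose α5 subunit serves extrasynaptic receptors in other neurons, was low. It was -2.13 at the lowest, -1.10 at the median and 0.31 at the highest in lumbar libraries, and -1.53, -0.67 and 0.37 in sacral libraries (log2 RPKM), from 30-201 reads per library. The ranges overlapped nearly in full, and 7 of 10 donors were higher in sacral. The log2 fold change was -0.34 (SE 0.30, 95% interval -0.96 to 0.29, adjusted p = 0.37), an interval that leaves room for a difference in either direction.

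The relation of Gabra3 to Gabra2 within a library, which does not depend on scaling, differed between the levels in each donor. Log2 RPKM of Gabra3 minus that of Gabra2 was -0.62 ± 0.51 (SD) in the 10 lumbar libraries and 0.33 ± 0.48 in the 10 sacral libraries. Gabra3 was above Gabra2 in 1 of 10 lumbar and in 7 of 10 sacral libraries. The difference was lower in the lumbar library of 10 of 10 donors, by 0.95 ± 0.40 on the log2 scale. Of the summed linear RPKM of Gabra2, Gabra3 and Gabra5 in a library, Gabra3 made up 36.6 ± 6.46% in lumbar and 52.8 ± 7.75% in sacral libraries (SD, n = 10 each), a higher share in 10 of 10 donors. The share of Gabra2 was 56.2 ± 9.66% and 42.1 ± 7.96%, lower in the sacral library of 10 of 10 donors, and that of Gabra5 was 7.18 ± 4.48% and 5.11 ± 2.51%. The shares of one library sum to a fixed total, so a higher share of one gene comes with lower shares of others.

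**Figure D2:**
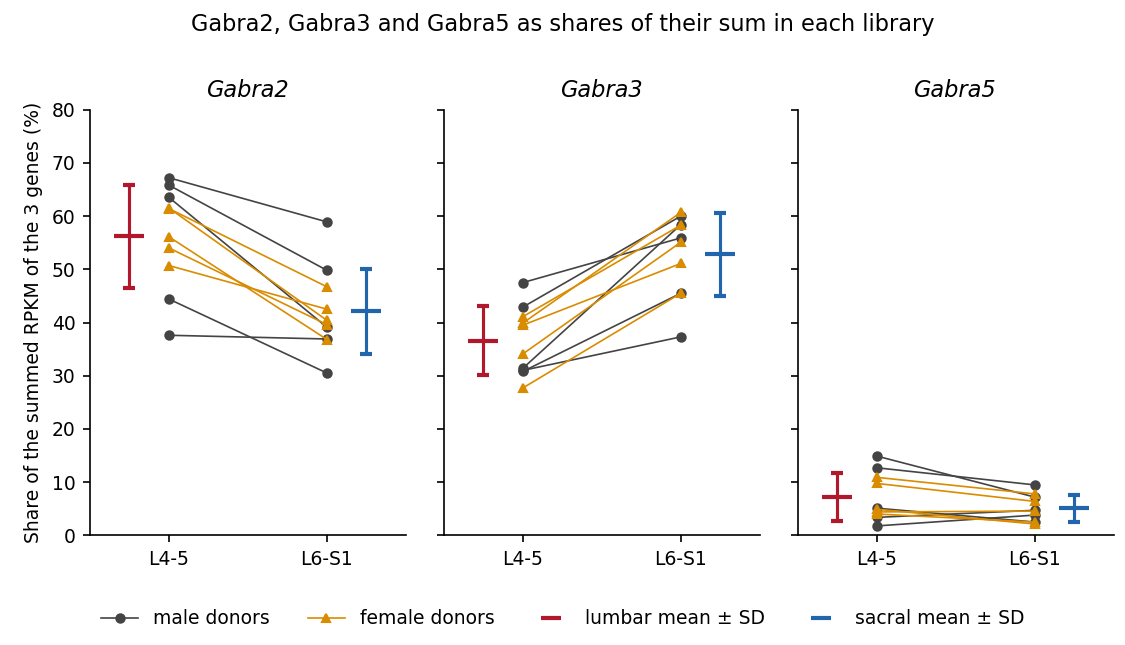
Share of each gene in the summed linear RPKM of Gabra2, Gabra3 and Gabra5 (y axis, percent) at the lumbar and the sacral level, with a line joining the libraries of a donor and bars for the mean ± SD of 10 libraries. Gabra3 rises from 36.6% to 52.8% on average, while Gabra2 falls in 10 of 10 donors.

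Gabrb1 encodes the β1 subunit. It was -1.93 at the lowest, -0.49 at the median and 0.08 at the highest in lumbar libraries, and -0.65, 0.48 and 1.33 in sacral libraries (log2 RPKM), from 47-523 reads per library. The ranges overlapped and all 10 donors were higher in sacral, yet by very unequal amounts, from 0.20 in M2 to 3.26 in F5. The means were -0.67 ± 0.64 and 0.41 ± 0.64 (SD, n = 10 each), with a log2 fold change of -1.08 (SE 0.26, 95% interval -1.61 to -0.54, adjusted p = 0.002). Leaving out each donor in turn gave -1.21 to -0.84, with adjusted p-values up to 0.0083.

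Gabrb2 encodes the β2 subunit, which is abundant in brain. Here it was the lowest of the 7 genes, at -2.80, -1.99 and -0.99 (lowest, median, highest) in lumbar libraries and -2.37, -1.75 and -0.53 in sacral libraries (log2 RPKM), from 57-351 reads spread over 9922 exon bases. The ranges overlapped. The donor differences had a mean of -0.34 ± 0.50 (SD), with 8 of 10 donors higher in sacral. Its mean was below the filter of -1 in each group, so the main test left it out. With no filter its log2 fold change was -0.34 (adjusted p = 0.32).

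The order of the 7 genes by mean log2 RPKM over the 20 libraries, a scale that accounts for exon length, was Gabbr1 (4.76), Gabbr2 (4.70), Gabra2 (2.43), Gabra3 (2.28), Gabrb1 (-0.13), Gabra5 (-0.78) and Gabrb2 (-1.87). Some neighbours in this order did not differ beyond their spread within libraries. Gabbr1 was above Gabbr2 in 14 of 20 libraries, Gabra2 above Gabra3 in 12 of 20, and Gabrb1 above Gabra5 in 13 of 20, with a within-library difference of 0.66 ± 1.08 (SD). Gabbr2 was above Gabra2 and Gabra3 above Gabrb1 in all 20 libraries.

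Each of the 4 differences between the levels was also seen within each sex alone. For Gabra3 the log2 fold change was -1.27 in the 5 male donors (adjusted p = 0.0015) and -1.23 in the 5 female donors (adjusted p = 0.00033). For Gabrb1 it was -0.82 in males (adjusted p = 0.033) and -1.33 in females (adjusted p = 0.038). For Gabbr1 it was -0.69 (adjusted p = 0.0067) and -0.61 (adjusted p = 0.0071). For Gabbr2 it was -0.71 (adjusted p = 0.017) and -0.67 (adjusted p = 0.010). The test of the difference between the sexes passed for none of the 6 genes, and for 0 of 16304 genes in all (limma, adjusted p at most 0.05), where 668 genes had an unadjusted p of at most 0.05. Its interval was -0.47 to 0.55 for Gabra3, -1.58 to 0.56 for Gabrb1, -0.35 to 0.51 for Gabbr1 and -0.51 to 0.59 for Gabbr2. The widest of these, that of Gabrb1, leaves room for a sizeable difference in either direction.

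Males and females were compared within each level. None of the 6 genes tested passed (limma, adjusted p at most 0.05), where 0.0427% of all genes passed in lumbar and 0.0368% in sacral libraries. Gabra3, which lies on the X chromosome, was 2.0, 1.06, 1.74, 1.13 and 1.17 in the lumbar libraries of males M1 to M5 and 2.27, 1.65, 1.79, 1.77 and 1.99 in those of females F1 to F5 (log2 RPKM). In sacral libraries it was 2.56, 3.01, 2.59, 2.38 and 2.92 in males and 3.50, 2.91, 2.99, 3.25 and 2.98 in females. The sexes overlapped at both levels. Female minus male was 0.47 in lumbar (95% interval 0.08 to 0.87, adjusted p = 0.37) and 0.43 in sacral libraries (0.04 to 0.83, adjusted p = 0.58). For Gabra2 it was 0.53 in lumbar libraries (-0.01 to 1.08, adjusted p = 0.44).

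Glial and neuronal transcripts moved with the level, so the differences were set beside both. The 10 glial markers were higher in lumbar by 0.94 ± 0.25 on average (SD over 10 donors, log2 scale), and 9 of 10 passed the test. The 10 neuronal markers were higher in sacral by 0.50 ± 0.22, and 8 of 10 passed, with a median log2 fold change of -0.53. When the mean of the neuronal markers was subtracted from each library, a scaling chosen after the data were seen, Gabra3 kept the largest difference, at -0.76 (SE 0.11, adjusted p = 2.2e-05). Gabrb1 was then at -0.58 (SE 0.24, adjusted p = 0.041), Gabbr1 at -0.15 (SE 0.06, adjusted p = 0.029) and Gabbr2 at -0.19 (SE 0.08, adjusted p = 0.045). Gabra2 turned to 0.19 (adjusted p = 0.31) and Gabra5 to 0.16 (adjusted p = 0.62). On that scale the median over all genes was 0.387, with 651 of 16304 genes called higher in sacral and 9302 higher in lumbar. The differences of Gabbr1 and Gabbr2 were there small beside that of Gabra3, but both genes were among the 651. With the glial marker mean as a covariate, only Gabra3 of the 6 genes passed (-0.98, SE 0.21, adjusted p = 0.021). Gabrb1 was at -0.34 (adjusted p = 0.80), Gabbr1 at -0.10 (adjusted p = 0.81) and Gabbr2 at -0.01 (adjusted p = 0.99). Gabra2 was at -0.19 (adjusted p = 0.87), and Gabra5 turned from -0.34 to 0.61 (adjusted p = 0.69). With that covariate 205 of 16304 genes passed in place of 7436. The glial mean was higher in lumbar in 10 of 10 donors, so this fit cannot tell glial content and level apart. Neuronal markers such as Trpv1 (-0.42, adjusted p = 0.46) and Scn10a (-0.23, adjusted p = 0.70) did not pass in it either.

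**Figure D3:**
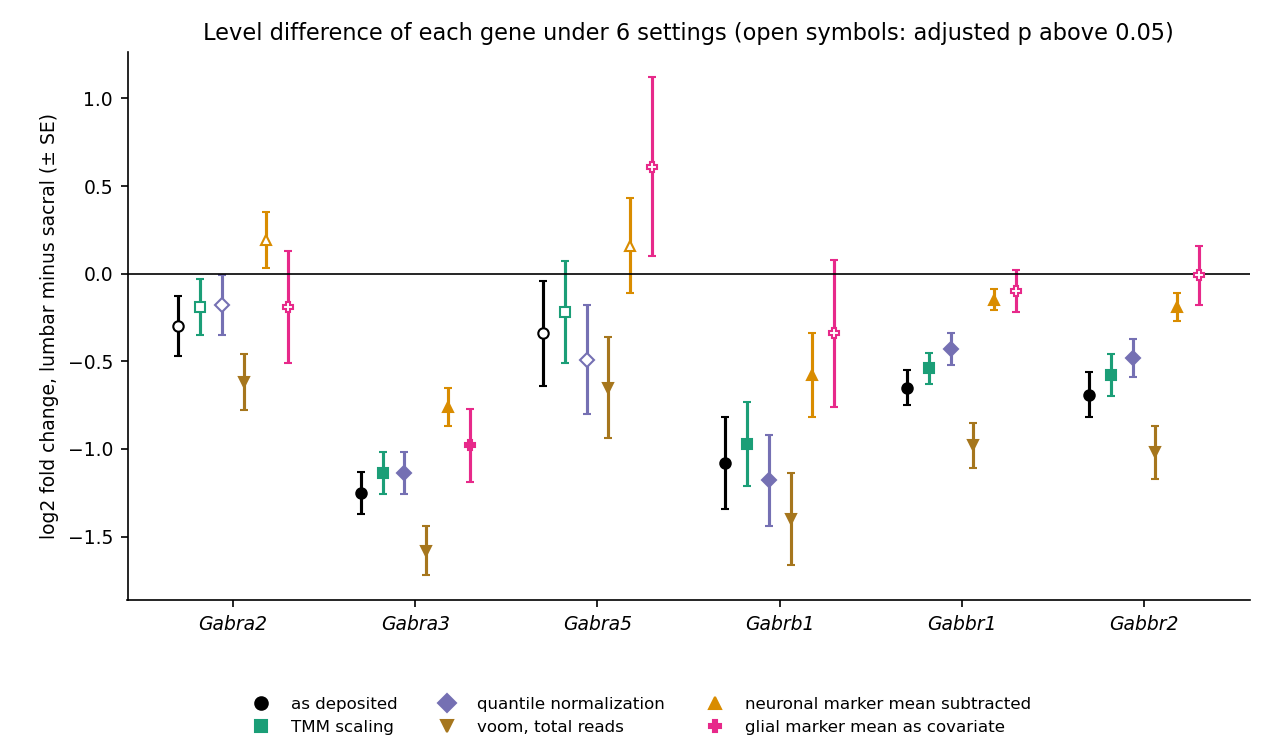
Log2 fold change, lumbar minus sacral (y axis, ± SE), of the 6 genes tested under 6 settings. Filled symbols passed at an adjusted p of 0.05 and open symbols did not. Gabra3 stays at -0.76 or below in each setting, while Gabbr1 and Gabbr2 come near 0 with the glial covariate.

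Other scalings moved all genes together. Scaling of the deposited values by trimmed mean of M-values (TMM) moved the median of all genes from -0.11 to 0.002, with 3569 genes higher in sacral and 3443 higher in lumbar in place of 4947 and 2489. On that scale Gabra3 was at -1.14, Gabrb1 at -0.97, Gabbr1 at -0.54 and Gabbr2 at -0.58, and the same 4 genes passed. With reads scaled to the library total the median of all genes was -0.435, and Gabra2 (-0.62, adjusted p = 0.0015) and Gabra5 (-0.65, adjusted p = 0.046) passed as well. The direction of the 4 genes was the same under each of the settings tried.

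Other genes of the GABA-A receptor were looked at as a list of 11. Gabrg3, which encodes a γ subunit, was the 1 gene of this list high enough to be tested, and it was higher in sacral libraries. It was -0.44 at the lowest, 0.35 at the median and 1.04 at the highest in lumbar libraries, and 0.93, 2.12 and 2.77 in sacral libraries (log2 RPKM), so the levels overlapped little. Its log2 fold change was -1.73 (SE 0.20, adjusted p = 2.4e-06). Gabra4, Gabrg1 and Gabrd had a value in all 20 libraries but lay below the filter, with at most 76, 124 and 177 reads. Gabre had a value in 19 libraries, Gabrq in 15, Gabrr2 in 13, Gabrr1 in 10, Gabrr3 in 9, Gabrp in 2 and Gabra6 in none.

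**Figure D4:**
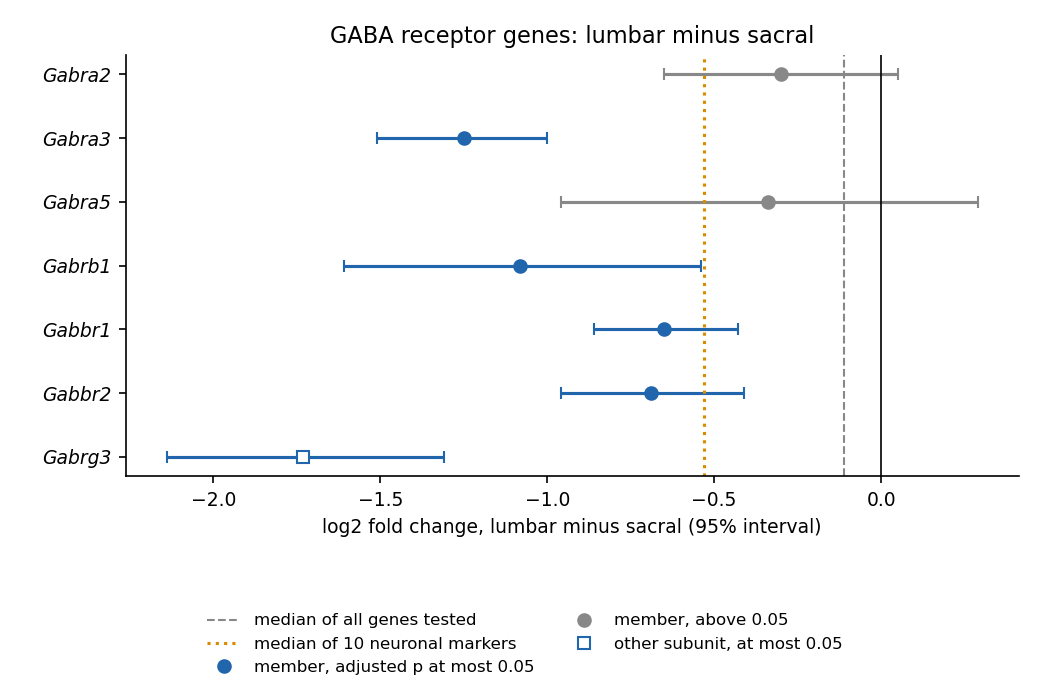
Log2 fold change, lumbar minus sacral, with its 95% interval (x axis) for the 6 GABA receptor genes tested (circles) and for Gabrg3 (square). The dashed line is the median of all genes tested (-0.11) and the dotted line that of the 10 neuronal markers (-0.53). Gabra3 and Gabrg3 lie farthest from both lines.

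Genes that act with the receptors were taken from lists. Of 14 partners and effectors of the GABA-B receptor, 13 were tested, 10 were higher in sacral and 2 higher in lumbar libraries, where 30.3% and 15.3% of all genes were, with a median log2 fold change of -0.48. Cacna1b, the pore of the N-type calcium channel that the receptor inhibits, was higher in sacral (-0.99, adjusted p = 3.6e-05). Kcnj9 and Kcnj6, subunits of the potassium channel that it opens through G proteins, are among the 10, but they passed the filter on low values through their sacral libraries alone, so their differences are a description (-1.52 and -0.94, from at most 195 and 407 reads). Neither passed in females alone or with the neuronal marker mean subtracted, in males alone Kcnj6 did not pass and Kcnj9 was too low to be tested, and Kcnj6 passed in 4 of 10 fits with a donor left out (not without M3, M4, M5, F1, F3 or F5). In the main fit the auxiliary subunits of the receptor were called in both directions. Kctd12b was higher in lumbar (1.18, adjusted p = 0.0013), as was Kctd12 (0.62, adjusted p = 0.013), each in 10 of 10 donors, while Kctd8 (-0.48, adjusted p = 0.0065) and Kctd16 (-0.50, adjusted p = 0.0032) were higher in sacral, each in 9 of 10 donors. With each sex alone (limma), Kctd12b passed in males and in females (adjusted p = 0.018 and 0.041) and Kctd12 in neither (0.072 and 0.091). Kctd8 and Kctd16 passed in males (0.012 each) but not in females (0.26 and 0.25). With the glial marker mean as a covariate Kctd12b, Kctd12, Kctd8 and Kctd16 were at 0.08, -0.52, 0.04 and 0.01 and did not pass. Kctd12, Kctd8 and Kctd16 were named after their values were seen, as were Slc12a5, Gad1, Gad2, Gnai1, Gnai3 and Gphn.

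Of 11 scaffold and trafficking genes of the GABA-A receptor, all were tested, 5 were higher in sacral and none higher in lumbar libraries, with a median of -0.32. The 5 of 11 are close to the 45.6% called over all genes, so the count is not a result about this list. Gabarapl1, of the family of GABA-A receptor-associated proteins, was at -0.52 (adjusted p = 1.2e-05). Ubqln1, which slows the breakdown of the receptor, was at -0.50 (adjusted p = 7.6e-05), Trak1, a motor adaptor, at -0.44 (adjusted p = 0.00061), and Nlgn2, an adhesion protein of inhibitory synapses, at -0.34 (adjusted p = 0.012). The medians of both lists were close to that of the neuronal markers (-0.53) or nearer to 0.

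The genes that set the level of chloride or of GABA itself were mixed. Slc12a2, the carrier that brings chloride into sensory neurons, was higher in lumbar libraries (0.32, adjusted p = 0.0073), in 8 of 10 donors. It passed in males alone (0.36, adjusted p = 0.047) but not in females alone (0.28, adjusted p = 0.13). With the glial marker mean as a covariate Slc12a2 was at 0.20 (adjusted p = 0.66). Stk39, a kinase that activates this carrier, was higher in sacral (-0.39, adjusted p = 0.00043). Slc12a5, the main chloride exporter of central neurons, was below the filter, with at most 92 reads in a library. Of 5 chloride genes 4 were tested. Of 8 genes for GABA synthesis, uptake and breakdown 3 were tested, and the uptake carrier Slc6a11 (0.86, adjusted p = 0.0031) was higher in lumbar, the direction of the glial markers. This carrier is known from glia as well as from neurons. With the glial marker mean as a covariate it was at 0.11 (adjusted p = 0.94), in a fit that cannot tell glial content and level apart. Which cells its reads came from was not tested. Gad1 and Gad2, which make GABA, had a value in 12 and 6 libraries, with at most 43 and 47 reads. Over all these lists together, 32 of 49 genes were tested, 17 were higher in sacral and 4 higher in lumbar, which is 65.6% called where 45.6% of all genes were called. The 17 include Kcnj9 and Kcnj6, which passed the filter through their sacral libraries alone, so this share is a description. Gnai1, also among the 17, passed in 5 of 10 fits with a donor left out. Another of the 17, a GABA-B partner or effector near the threshold in the main fit (limma, adjusted p = 0.05), passed in 1 of 10. Of the neuronal markers 8 of 10 were called. With the neuronal marker mean subtracted, 2 of the 17 genes higher in sacral were still so, Cacna1b (-0.50, adjusted p = 0.00061) and Gabrg3 (-1.23, adjusted p = 4.9e-05). Of the others, 12 were no longer called, among them Kctd8, Kctd16, Gabarapl1, Ubqln1, Trak1, Nlgn2 and Stk39, and 3 (Gnai1, Gnai3 and Gphn) were called higher in lumbar. The 4 genes higher in lumbar were still so. On that scale 651 of all 16304 genes were called higher in sacral and 9302 higher in lumbar. Calls that turned to lumbar or stayed there are thus not a result about these lists. With the glial marker mean as a covariate Gabrg3 alone was called (-1.47, adjusted p = 0.045).

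**Figure D5:**
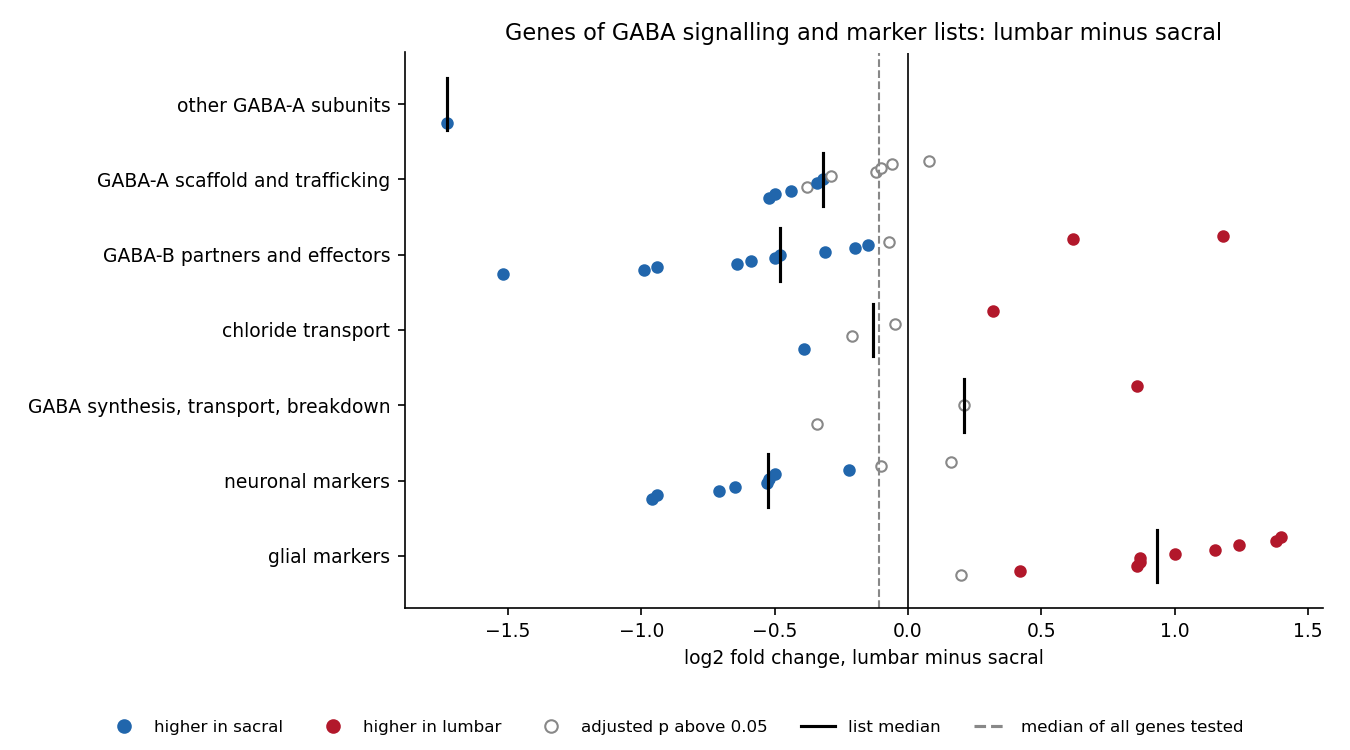
Log2 fold change, lumbar minus sacral (x axis), of each gene tested in the 5 lists of GABA signalling and in the neuronal and glial marker lists. Filled points passed at an adjusted p of 0.05, bars give list medians, and the dashed line is the median of all genes tested (-0.11). The medians of the scaffold and GABA-B partner lists lie on the side of the neuronal markers, as does Gabrg3, the 1 gene tested of the subunit list. Kctd12b, Slc6a11, Kctd12 and Slc12a2 were called higher in lumbar.

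The genes whose levels were most like those of each receptor gene over the 20 libraries were named by Pearson r, as a description with no test. For Gabbr1 these were Cds2, Cadm3 and Tmem63c (r = 0.98 each), and for Gabbr2 they were Nipal3 (0.98), Prkce (0.97) and Rbfox1 (0.97). For Gabra3 they were Negr1 (0.95), Sh3gl2 (0.94) and Syn2 (0.93), and for Gabrb1 they were Ano10, Tmem229b and Gm15491 (0.88 each). The remaining genes had weaker likenesses: Vash1 and Gm17543 (0.79 each) and Sobp (0.76) for Gabra2, Gm12414 (0.80), Gm14507 (0.77) and AC107770.1 (0.74) for Gabra5, and Cpxm2 (0.80), Rgs17 (0.76) and Kars (0.75) for Gabrb2. Over the 10 donor differences, which take out the mean of each donor, the closest genes to Gabbr1 were Sv2c (0.98), Nmnat2 (0.97) and Prkce (0.97), and to Gabra3 they were Drg2 (0.89), Nsg1 (0.88) and Ttll3 (0.88). Prkce was thus named for both GABA-B genes. All points share donors, levels and the makeup of the sorted cells.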

How the data were processed

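The 7 genes and the gene lists were chosen with earlier results of these data known. RNA was amplified and sequenced from 20 sorted samples. Reads were aligned by the authors with Subread to mm9 (unique matches only), counted with featureCounts on Ensembl genes and scaled with limma 3.26.9 and edgeR 3.12.1. The authors deposited log2 RPKM, with 319449 empty cells, and all libraries share the median 0.93, by a step not given in the sources used here. Of 37620 genes listed, 37205 matched the NCBIM37 annotation, and 28233 had a value in at least 1 library.

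Low values step by whole reads: 98.1% of 430293 values came out whole within 0.01 of a read. The reads so recovered give depth, the 2 voom alternatives and the factors of the TMM scaling. Precision is limited by counting for genes of few reads. Levels and sexes were compared on this log2 scale in R 4.3.3 by limma 3.58.1, aided by statmod 1.5.0, with 1 mean per group of sex and level, a mean-variance trend, and the donor as a random block (correlation 0.17), two-sided, with Benjamini-Hochberg adjustment at 0.05. Genes were kept when their mean was above -1 in at least 1 group with 3 or more values. Donors are marked by the animal numbers of the labels. Deviations from the group means had a mean correlation of 0.18 between libraries of a donor and of -0.04 between other libraries of a sex. p-values of the main fit rest on the spread of libraries within groups, moderated over genes, with the same donor correlation for all genes. They do not measure the spread of a gene's own donor differences. Tables and plots used Python 3.11.15, pandas 2.3.3, numpy 2.4.6 and matplotlib 3.10.9, and the fit was tested on simulated data.

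All 7 receptor genes are named, as are the other GABA-A subunits of the list. Some genes of these lists are not reported here. From each other GABA list the text names up to 4 genes with the largest change among those called. Outside this rule, Kctd12, Kctd8, Kctd16, Slc12a5, Gad1, Gad2, Gnai1, Gnai3 and Gphn were named after their values were seen. Alternatives were other filters, pseudocounts of 1 and 0.1, other donor models, quantile and TMM scaling, voom on recovered reads, no trend, array weights, a glial covariate, each sex alone and each donor left out. Subtraction of the neuronal marker mean was added after seeing the data.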

Additional observations from a re-analysis of the deposited data

How the results depend on the processing

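Of the 6 GABA receptor genes tested, 4 passed between the levels in the main analysis. The same count came with no replicate block, with each sex alone, and under all settings with these exceptions: 5 genes passed with the donor as a fixed replicate block (Gabra2 added), 6 with reads scaled to their total, and 1 with the glial marker mean as a covariate. Leaving out each donor in turn gave 4 to 5, the higher count without donor M1. Of the 49 genes of the GABA lists 21 passed, against 20 with no replicate block, 1 (Gabrg3) with the glial covariate, 16 with the neuronal marker mean subtracted (2 higher in sacral and 14 in lumbar), 29 with reads scaled to their total (27 and 2), 14 in males alone and 8 in females alone, fits with 5 donors each, and 18 to 22 with a donor left out. Of all genes, 7436 passed, against 205 with the glial covariate, 4644 in males alone and 3671 in females alone. With the neuronal marker mean subtracted 651 genes were higher in sacral and 9302 in lumbar (median 0.387), with reads scaled to their total 9373 and 1376, and with quantile scaling 3432 and 3063. No sex difference of a receptor gene passed in any of the settings run for it. Gabra3 ranged from -1.58 to -0.76 over 26 alternatives and passed in all of them. The cause of these shifts was not tested. Gabra5 did not pass and Gabrb2 lay below the filter of the main analysis, with -0.34 (adjusted p = 0.32) without it. The part of depth in this was not tested, and Gabrb1 passed with 47-523 reads per library.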

Other observations

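Gabra2 varied more among the male than among the female donors, a difference that was not tested. In lumbar libraries it was 3.12, 2.08, 1.41, 2.23 and 1.22 in males M1 to M5 and 2.76, 2.81, 2.64, 2.16 and 2.35 in females F1 to F5 (log2 RPKM), with SDs of 0.75 and 0.28. In sacral libraries the SDs were 0.51 and 0.15. The donors with the lowest lumbar values, M3 and M5, were also the lowest in sacral libraries, at 1.99 and 1.95, and M1 was the highest at both levels.

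The difference in Gabrb1, lumbar minus sacral, was -3.26 in donor F5 and -1.98 in donor F1 (log2), against -1.5 to -0.20 in the other 8 donors. In F5 it had the lowest lumbar value of all donors (-1.93) and the highest sacral value (1.33).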
